A study of Mus musculus with 4 samples.

Results

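Histones are the proteins around which DNA is wound: H2A, H2B, H3 and H4 form the nucleosome core, and H1 is the linker histone that binds where DNA enters and leaves it. Most mammalian histone genes are replication-dependent. They lie in clusters, are transcribed mainly in S phase when new DNA must be packaged, and give mRNAs that end in a conserved 3′ stem-loop bound by the stem-loop binding protein in place of a poly(A) tail. Many replacement and variant histone genes are transcribed outside S phase too and give polyadenylated mRNAs. Some clustered genes are known to give both kinds of transcript, so how much histone mRNA a library holds depends on how the library captured RNA.

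The histone genes were taken from RNA-seq of 4 mouse sarcomas by symbol, with pseudogenes left out and with at least 10 counts summed over the 4 libraries. This gave 35 genes, called members below, of 70 histone symbols and of 56691 genes in the table. All 4 sarcomas came from mice labelled p53R282W/+, written W/+, which carry a mutant p53 allele beside a wild-type one and model Li-Fraumeni syndrome. The genotype is that of the germline, so the non-tumor cells in each piece of tissue carry it too. 2 sarcomas came from mice given arsenic trioxide (ATO) in drinking water over the long term, and 2 from mice labelled PBS. The labels do not give the ages of the mice or the sites of the sarcomas, and name no shared litter or batch.

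The members comprised 7 of 11 symbols of type H1, 4 of 18 of H2A, 10 of 17 of H2B, 5 of 12 of H3 and 9 of 12 of H4. Of these, 29 lie on chromosome 13 and 3 on chromosome 3 (H2bc21, H3c15 and H4c14), the chromosomes of the main histone clusters. H1f0 on chromosome 15, H1f10 on chromosome 6 and H1f9 on chromosome 11 lie alone. A further 35 histone symbols were under the minimum, with 0 to 9 counts each over the 4 libraries, and 10 of them had 0 counts in all. The minimum decided which of the weak genes were counted. H3c6, with 9 counts, fell just outside it, while H1f5 and H3c3, with 10 each, fell just inside.

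Capture of transcripts without a poly(A) tail depends on the library. The labels name total RNA and an mRNA-Seq kit, and the methods name a purification of mRNA, so a histone mRNA without a tail may be lost from these libraries before sequencing. A level given here is therefore the level captured, and not the level of a histone mRNA in the cell. RNAs known to have no poly(A) tail were counted as a check, in a list chosen after the histone values were seen. Rpph1, the RNA of ribonuclease P, had 24 and 19 counts in the ATO sarcomas and 21 and 63 in the PBS sarcomas, and Rn7sk, a nuclear regulator of transcription, had 14 and 29 against 30 and 47. The other RNAs of that list (Rn7s1, Rn7s2, Rny1, Rny3, Snord118, Rmrp and Terc) had 0 to 2 counts in each library. The groups overlapped for every RNA of that list, and its summed counts were 38 and 52 in the ATO sarcomas and 57 and 112 in the PBS sarcomas.

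The stem-loop marks the genes whose mRNAs can end without a poly(A) tail, so the 3′ UTR of the longest annotated protein-coding transcript of each member was searched on its own strand for the letters of the stem-loop: GG, any 2 bases, CTT, any base, T, any base, AG, any 2 bases, CC. They were found in 24 of the 30 members with an annotated 3′ UTR, between 24 and 40 bases after the stop codon, and anywhere in the longest transcript of 0.584% of 21901 protein-coding genes. The other 5 members have no annotated 3′ UTR. The commonest form, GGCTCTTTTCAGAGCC, occurred in 13 members, and 2 members, H4c9 and H4c14, shared the form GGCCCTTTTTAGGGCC. Shown here are the members with a stem-loop on which the values below turn (GRCm38, transcript strand, 5′ to 3′), with the stem-loop in capitals.
H1f2, chr13:23739512-23739527, plus strand: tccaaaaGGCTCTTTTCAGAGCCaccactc
H2bc8, chr13:23571843-23571858, plus strand: acccaaaGGCTCTTTTCAGAGCCacccata
H3c15, chr3:96238485-96238500, minus strand: ccacaaaGGCTCTTTTCAGAGCCaccacag
H4c8, chr13:23531458-23531473, plus strand: aaccaaaGGCCCTTTTCAGGGCCgcccaca
H4c9, chr13:22040966-22040981, minus strand: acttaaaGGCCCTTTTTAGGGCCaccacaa
H4c14, chr3:96262939-96262954, minus strand: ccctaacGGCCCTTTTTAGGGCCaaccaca
H3c8, chr13:23535889-23535904, plus strand: ctttaaaGGCTCTTCTTAGAGCCacccatc
H3c8 is shown because no other member has its form of the letters. H4c11, which is not shown, also has a form found in no other member. A match is a description of the letters, not a measured site of cleavage. In H1f2 the annotated transcript runs on for 840 bases after the stem-loop, in H4c14 for 1257 bases and in H4c8 for 46 bases. AATAAA, the letters of the common poly(A) signal, lay in the last 50 bases of the annotated transcript in 9 members, H1f0, H1f2, H1f10, H2bc21 and H4c14 among them, and in 59.2% of protein-coding genes.

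The 6 members with an annotated 3′ UTR that does not hold these letters were H1f0, H1f9, H1f10, H2bc4, H2bc21 and H2bc24. Their summed level was 105 and 95.4 FPKM (counts scaled by gene length and by the total of the library) in the ATO sarcomas and 123 and 138 FPKM in the PBS sarcomas. The 24 members with the stem-loop letters summed to 129 and 86.6 FPKM in the ATO sarcomas and 46.3 and 105 FPKM in the PBS sarcomas. The groups overlapped in FPKM but not in normalized CPM (counts scaled to the library size by the TMM method). In normalized CPM these 24 members summed to 160 and 144 in the ATO sarcomas and 50.7 and 130 in the PBS sarcomas. H1f2 and H4c9 carried most of the FPKM sum, and were picked from their levels to be left out. Without them the remaining 22 members summed to 20.3 and 18.7 FPKM in the ATO sarcomas and 10.5 and 13.5 FPKM in the PBS sarcomas, and the 5 members without an annotated 3′ UTR summed to at most 2.89 FPKM in a sarcoma.

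**Figure D1:**
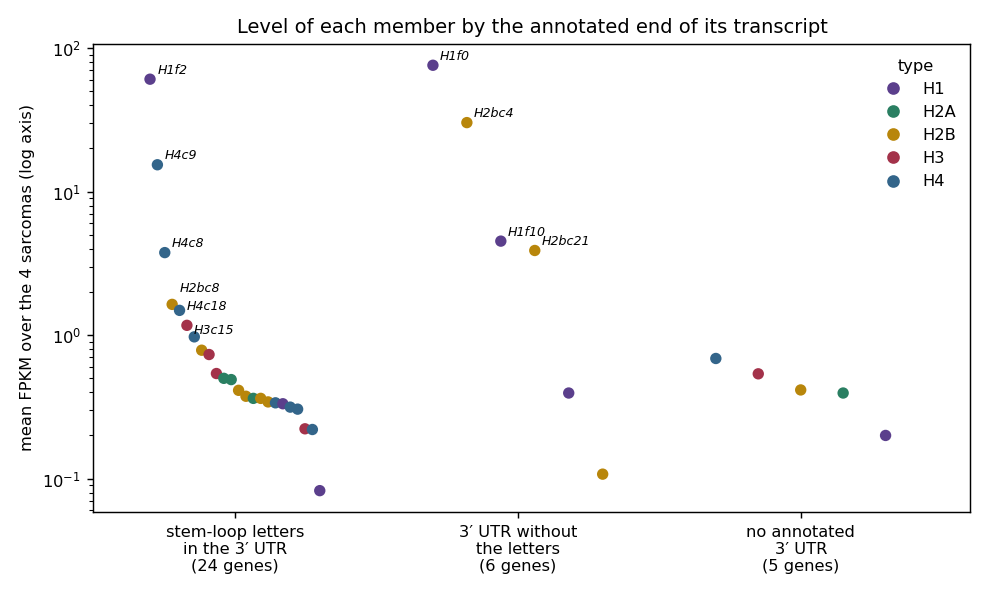
Mean FPKM of each of the 35 members over the 4 sarcomas (log axis), in columns for members whose annotated 3′ UTR holds the stem-loop letters, those whose 3′ UTR does not, and those without an annotated 3′ UTR, with points colored by histone type. The 4 members above 10 FPKM, H1f0, H1f2, H2bc4 and H4c9, stand in the first and second columns, and the members without an annotated 3′ UTR all lie below 1 FPKM.

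All members together took 0.0349% and 0.0277% of the counts in the ATO sarcomas and 0.0280% and 0.0404% in the PBS sarcomas. The exact binomial 95% intervals, which cover counting error only, ran from 0.0341% to 0.0358% and from 0.0269% to 0.0285% in the ATO sarcomas, and from 0.0272% to 0.0288% and from 0.0395% to 0.0413% in the PBS sarcomas. ATO 2 and PBS 1 were the lowest, with intervals that overlapped, PBS 2 was the highest, and so the groups overlapped. Most of these counts came from few genes. H1f0, H1f2, H2bc4 and H2bc21, all known to give polyadenylated transcripts, held 87.4% and 91.7% of the member counts in the ATO sarcomas and 88.2% and 93.3% in the PBS sarcomas. Only 10 members had a mean level above 1 FPKM and 4 above 10 FPKM.

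**Figure D2:**
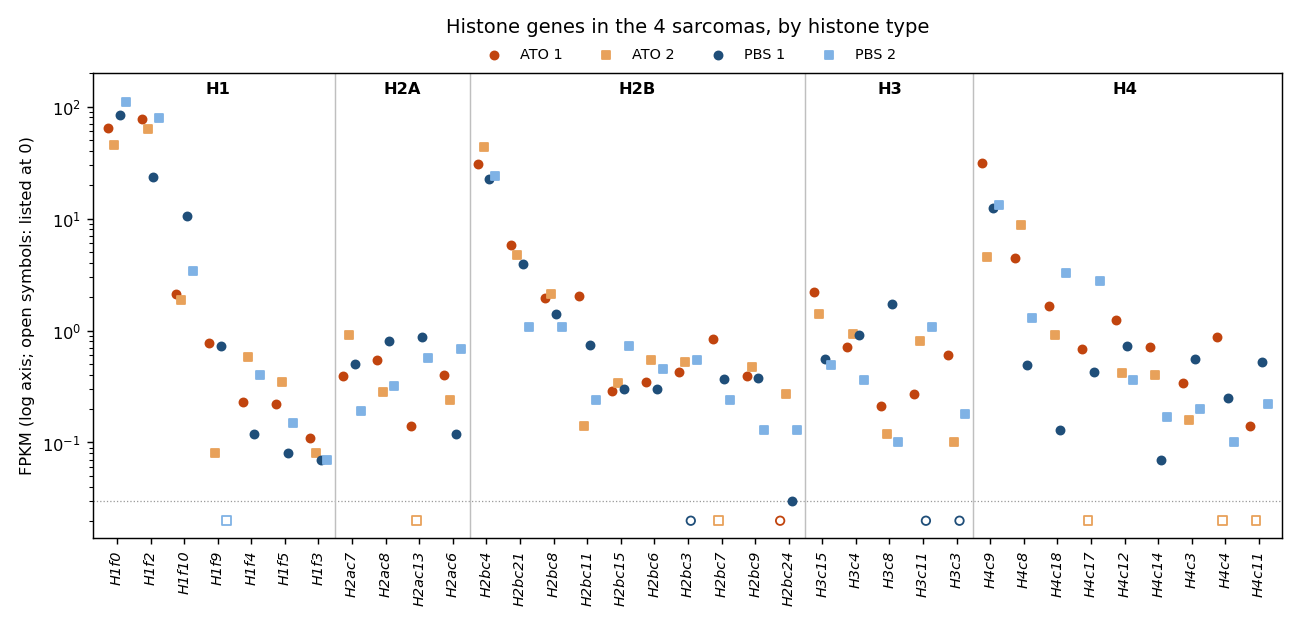
FPKM of each of the 35 members in each sarcoma (log axis), ordered by histone type and mean level, with 1 symbol per library and open symbols below the dotted line for a value listed at 0. H1f0 and H1f2 are the highest, between 23.4 and 109 FPKM, and all 4 H2A members stay below 1 FPKM in all sarcomas.

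The first question was whether any histone gene differed between sarcomas of ATO-treated and PBS mice. In edgeR's quasi-likelihood test with Benjamini-Hochberg adjustment, 0 of 17188 genes passed an adjusted p of 0.05 (0.0% called), so 0 of the 18 members that passed the count filter did, and the smallest adjusted p among them was 0.570. DESeq2 called 716 genes (4.33%) and edgeR without the count filter 541 (1.75%), with 0 members among them in either. DESeq2 gave an adjusted p for 13 of the 18 tested members and none for H1f3, H1f9, H2bc9, H4c14 and H4c18. In these fits the smallest adjusted p of a member was 0.0671 and 0.240, respectively. At an unadjusted p under 0.05, edgeR had 1463 genes (8.51%) and 3 members, H4c8, H3c15 and H4c14. Values and folds below therefore describe these 4 tumors, and an exact permutation test of a single gene with 2 against 2 sarcomas cannot pass a threshold of 0.05. The remaining 17 members, with 10 to 28 counts in all, were too low for the filter.

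Of the tested members, 9 had both ATO sarcomas above both PBS sarcomas in normalized CPM (counts scaled to the library size by the TMM method), where 19.7% of all tested genes did, and 2 had both below, where 20.2% did. In FPKM the counts were 8 (12.8% of all genes) and 2 (29.6%). A weak member passed the filter if at least 2 libraries, from either group or from both, were high enough. These counts therefore leave out members that are low everywhere. H4c14 (21 and 10 counts in the ATO sarcomas against 2 and 5) and H1f3 (15 and 9 against 9 and 9) passed only through the ATO sarcomas. No tested member passed only through the PBS sarcomas, so the filter itself can add to the members counted as higher. With all 35 members fitted without the filter, 24 had a fitted log2 fold change above 0, where 49.2% of all genes did, and their median log2 fold change was 0.70, beside -0.02 over all 30859 genes. These fits share 4 tumors, and members of 1 cluster and of like sequence are not independent of each other. Scaling by total counts in place of TMM moved the median over all tested genes from -0.02 to -0.28 on the log2 scale, and 14 of the 18 tested members lay above 0 under both.

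**Figure D3:**
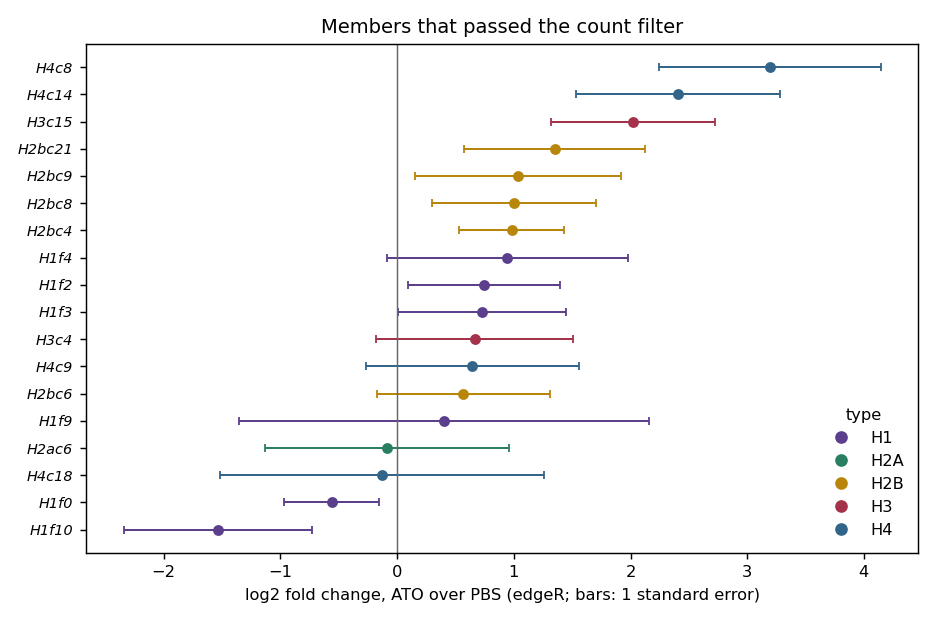
Log2 fold change, ATO over PBS, of the 18 members that passed the count filter, from edgeR with 2 sarcomas a group, with bars of 1 standard error and colors for the histone type. The values run from -1.54 (H1f10) to 3.19 (H4c8), and the adjusted p of every member shown is at least 0.570.

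Among the linker histones, H1f0 (chr15:79028450-79030504) encodes H1.0, a replacement linker histone known from differentiated and resting cells, and was the highest member by mean FPKM. It was at 64.8 and 45.0 FPKM in the ATO sarcomas and at 84.7 and 109 FPKM in the PBS sarcomas. Both ATO sarcomas lay below both PBS sarcomas. Its fitted log2 fold change was -0.56 ± 0.40 (SE, n = 2 per group) with an adjusted p in edgeR of 0.730. Its transcript overlaps Gm49544 on the opposite strand, and whether reads were counted by strand is not stated.

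H1f2 (Hist1h1c, chr13:23738808-23740367), a clustered linker histone gene with the stem-loop, stood second, at 77.6 and 63.4 FPKM in the ATO sarcomas and 23.4 and 78.4 FPKM in the PBS sarcomas. PBS 1 was low and the other 3 sarcomas were alike, so the groups overlapped in FPKM, although in normalized CPM the ATO sarcomas (121 in each) lay above the PBS sarcomas (33.6 and 111). The fitted log2 fold change was 0.74 ± 0.65 (SE) with an adjusted p in edgeR of 0.781, and it was 0.12 without PBS 1 and 1.84 without PBS 2. Within each library, which sets depth aside, H1f2 took 47.6% and 51.6% of the counts of H1f0 and H1f2 together in the ATO sarcomas and 17.3% and 35.3% in the PBS sarcomas. The groups did not overlap in that share, which was computed after the values of both genes were seen.

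H1f10 (H1fx, chr6:87980421-87981637), which encodes the divergent linker histone H1X, was at 2.13 and 1.88 FPKM in the ATO sarcomas and at 10.6 and 3.43 FPKM in the PBS sarcomas. PBS 1 stood apart and both ATO sarcomas lay below both PBS sarcomas. edgeR gave a log2 fold change of -1.54 ± 0.80 (SE) with an adjusted p of 0.646, and the value was -0.49 without PBS 1. In addition, 2 predicted genes, Gm5577 on the opposite strand and Gm47286 on the same strand, overlap its exons. H1f9 (Hils1), the linker histone of spermatids, had 24 counts over the 4 libraries, and the germ cell markers Ddx4 and Dazl summed to at most 0.43 FPKM. H1f3, H1f4 and H1f5, replication-dependent linker genes, were at most 0.58 FPKM in any sarcoma.

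As a type, H1 summed to 146 and 111 FPKM in the ATO sarcomas and 120 and 192 FPKM in the PBS sarcomas. The groups overlapped, and the log2 ratio of the group means, -0.27, was 0.33 without H1f0 and 0.10 without PBS 2, so its sign rested on that gene and on that sarcoma. In normalized CPM without H1f0, the 6 other H1 genes summed to 125 and 126 in the ATO sarcomas and 46.8 and 116 in the PBS sarcomas.

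**Figure D4:**
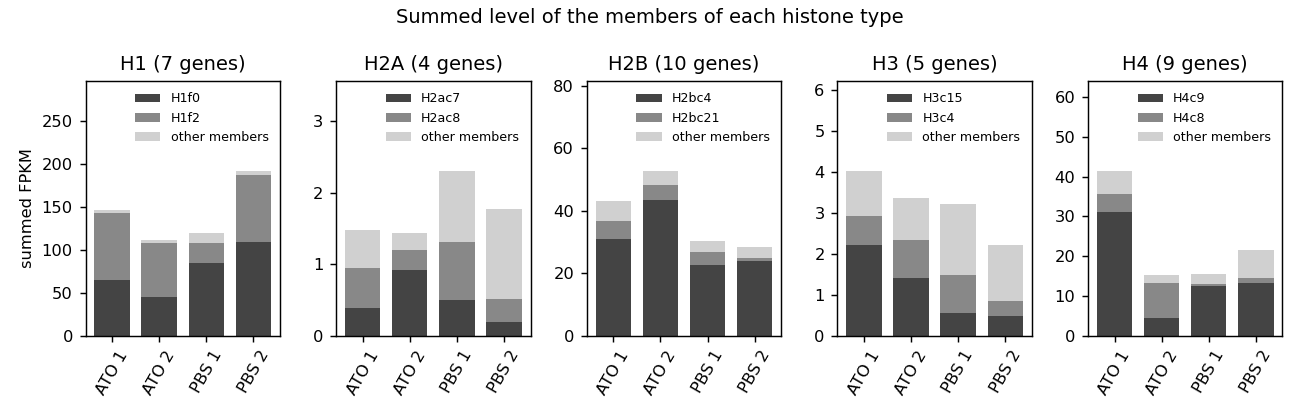
Summed FPKM of the members of each histone type in each sarcoma, with bars from 0 divided into the 2 members of highest mean FPKM and the others, and each type on an axis of its own. H2B and H3 are higher in both ATO sarcomas than in both PBS sarcomas, H2A is lower in both, and H1 and H4 overlap.

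H2B was the type with the most members. H2bc4 (Hist1h2bc, chr13:23684199-23692908), a clustered H2B gene with a second exon and no stem-loop letters in its annotated transcript, was at 31.0 and 43.4 FPKM in the ATO sarcomas and at 22.7 and 23.9 FPKM in the PBS sarcomas. The PBS sarcomas were close to each other and both ATO sarcomas lay above them. In the edgeR fit its log2 fold change was 0.98 ± 0.45 (SE) with an adjusted p in edgeR of 0.610, and it was 0.54 without ATO 2.

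H2bc21 (Hist2h2be, chr3:96221119-96223738), an H2B gene of the smaller cluster that is known to give a polyadenylated transcript, was at 5.85 and 4.73 FPKM in the ATO sarcomas and at 3.89 and 1.08 FPKM in the PBS sarcomas. PBS 2 was the low sarcoma, and the groups did not overlap. Its log2 fold change was 1.35 ± 0.78 (SE) with an adjusted p in edgeR of 0.673, and it was 2.56 without PBS 1 and 0.69 without PBS 2. Of the H2B genes with the stem-loop, H2bc8 was highest, at 1.96 and 2.12 FPKM in the ATO sarcomas and at 1.39 and 1.08 FPKM in the PBS sarcomas, with a fitted log2 fold change of 1.00 ± 0.70 (SE) with an adjusted p in edgeR of 0.721. H2bc9 was below 0.5 FPKM in all sarcomas, and its 12 and 12 counts in the ATO sarcomas stood against 11 and 4 in the PBS sarcomas, with a log2 fold change of 1.04 that was 1.96 without PBS 1 and 0.47 without PBS 2. H2bc11, with 26 counts in all, was at 2.02 FPKM in ATO 1 and at most 0.74 FPKM elsewhere.

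The 10 H2B members summed to 43.1 and 52.6 FPKM in the ATO sarcomas and 30.1 and 28.5 FPKM in the PBS sarcomas. Both ATO sarcomas lay above both PBS sarcomas, and they still did without H2bc4, at 12.1 and 9.14 against 7.40 and 4.63 FPKM. The log2 ratio of the group means was 0.71 in FPKM and 1.04 in normalized CPM.

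The H2A genes were the weakest of the core types. The 4 members, H2ac6, H2ac7, H2ac8 and H2ac13, had 63, 19, 24 and 11 counts over the 4 libraries, and of the 14 other H2A symbols none exceeded 7. Their sum was 1.48 and 1.44 FPKM in the ATO sarcomas and 2.30 and 1.77 FPKM in the PBS sarcomas. The groups did not overlap in FPKM but did in normalized CPM, where the sums were 1.65 and 1.60 against 1.37 and 2.07. Only H2ac6 was tested, with a fitted log2 fold change of -0.09 ± 1.04 (SE) with an adjusted p in edgeR of 0.987. All 4 overlap another gene's exons, and H2ac13 shares 88.4% of its 100-base windows with other genes. The pair H2ac18 and H2ac19, whose windows are shared in full, had 0 counts in all 4 libraries, as had the pair H3c13 and H3c14, and how reads that fit both copies were counted is not given.

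Of the H3 genes, H3c15 (Hist2h3c2, chr3:96238108-96239127) was highest, at 2.22 and 1.41 FPKM in the ATO sarcomas and at 0.56 and 0.49 FPKM in the PBS sarcomas. These values rest on 41 and 22 counts against 10 and 9. Both ATO sarcomas lay above both PBS sarcomas, and the fitted log2 fold change was 2.02 ± 0.70 (SE) with an adjusted p in edgeR of 0.570. It shares 61.6% of its windows with other genes. H3c4 was at 0.71 and 0.94 FPKM against 0.92 and 0.36 FPKM, so its groups overlapped.

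H3c8 had 16 of its 20 counts in PBS 1, and H3c11 had 0 counts in PBS 1 and 8 in PBS 2. The 5 H3 members summed to 4.02 and 3.37 FPKM in the ATO sarcomas and 3.21 and 2.21 FPKM in the PBS sarcomas. Without H3c15 the other 4 gave 1.80 and 1.96 against 2.65 and 1.72 FPKM, and the groups overlapped.

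H4 is encoded by many genes for the same protein, and over the 4 libraries together H4c9 (Hist1h4i, chr13:22040636-22041362) held most of the H4 counts. It had 412 and 50 counts, or 31.3 and 4.51 FPKM, in the ATO sarcomas and 158 and 174 counts, or 12.4 and 13.3 FPKM, in the PBS sarcomas. ATO 1 was the highest sarcoma and ATO 2 the lowest, with the PBS sarcomas between them. The fitted log2 fold change was 0.64 ± 0.91 (SE) with an adjusted p in edgeR of 0.867, and it was -1.11 without ATO 1.

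H4c8 (Hist1h4h, chr13:23531050-23531519) had a fitted log2 fold change of 3.19 ± 0.95 (SE) with an adjusted p in edgeR of 0.570. It had 38 and 63 counts in the ATO sarcomas and 4 and 11 in the PBS sarcomas, or 4.46 and 8.78 against 0.49 and 1.30 FPKM. Both ATO sarcomas lay above both PBS sarcomas, with ATO 2, where H4c9 was lowest, at the top. With a sarcoma left out, its log2 fold change ran from 2.44 to 4.03, and without ATO 2 it was below that of H4c14 (2.65). Other genes share 38.5% of its windows.

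H4c14 (Hist2h4, chr3:96261682-96263311) shares no window with another gene and had 21 and 10 counts in the ATO sarcomas and 2 and 5 in the PBS sarcomas. That is 0.71 and 0.40 against 0.07 and 0.17 FPKM, and the groups did not overlap. In the fit its log2 fold change was 2.41 ± 0.87 (SE) with an adjusted p in edgeR of 0.577. H4c18 and H4c17, which share 80.7% and 88.1% of their windows with other genes, were highest in PBS 2, at 3.24 and 2.77 FPKM. The 9 H4 members summed to 41.4 and 15.2 FPKM in the ATO sarcomas and 15.6 and 21.7 FPKM in the PBS sarcomas. These overlapped, and without H4c9 the other 8 gave 10.1 and 10.7 against 3.18 and 8.36 FPKM.

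The letters TATAAA (the TATA box) occurred on either strand in 18 of 30 matched member promoters from RefSeq (250 bases before to 50 after the start, GRCm38.p6) and in 14.1% of 27025 promoters. CCAAT occurred in 22 members and 37.8% of all promoters, and ATTTGCAT (the octamer of H2B promoters) in 5 members and 1.74%. The windows of H1f0, H1f10 and H4c8 held none of the 3. That of H1f0 (chr15:79027962-79028261) ends before the gene start given above, so the bases just before that start were not searched. Of the 5 members with the octamer, H2bc3, H2bc6 and H2bc8 are H2B genes and H2ac6 and H2ac8 are H2A genes. The windows of H2ac8 and H2bc8 overlap on opposite strands, and their octamer is the same site. Those of H2ac7 and H2bc7 overlap likewise, so the counts of members include shared sites for both genes of such a pair.

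The tumors differed in more than treatment. Total counts ran from 15259695 to 18134000. A gene with 0 counts may have had up to 3, which is between 0.165 and 0.197 CPM of those totals, without the TMM scaling. The share of counts on mitochondrially encoded genes was 14.7% in ATO 2 and at most 2.59% elsewhere. All 6 skeletal muscle markers and all 5 adipocyte markers were higher in both ATO sarcomas, with summed levels of 11343 and 859 FPKM against 5.13 and 97.5 FPKM for muscle, and of 229 and 1369 against 12.7 and 66.2 FPKM for fat. Lep had 0 counts in both PBS sarcomas and Plin1 in PBS 1. The labels of all 4 samples give a protocol for cultured cells with agents used to turn cells into adipocytes, although the samples are labelled as tumor tissue. The part of these markers in the histone values was not tested. Of the 5 mesenchymal and sarcoma markers, Vim (131 and 272 against 581 and 812 FPKM) and Pdgfrb (36.2 and 23.7 against 98.6 and 70.8 FPKM) were lower in both ATO sarcomas, while the sum, mostly Col1a1 and Col1a2, was 3929 and 801 against 3784 and 1284 FPKM. PBS 2 stood apart in the endothelial markers, at 774 FPKM against at most 128 FPKM elsewhere, and was highest in the erythroid markers, at 17807 FPKM against 268 to 9674 FPKM. In bulk tissue, fewer cells of a type and less RNA per cell cannot be told apart.

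Replacement and variant histones outside the members were read from the same fit. Some of their mRNAs depend on the cell cycle, as that of Cenpa, or occur both with and without a poly(A) tail, as that of H2ax. Of 9 tested genes, edgeR called 0 (DESeq2 0, and 0 at an unadjusted p under 0.05), 2 had a fitted value above 0 and 7 below, and their median log2 fold change was -0.38. H3f3b, which with H3f3a encodes the replacement histone H3.3, was at 178 and 90.5 FPKM in the ATO sarcomas and at 205 and 206 FPKM in the PBS sarcomas. H3f3a was at 122 and 92.4 against 124 and 120 FPKM. Both genes stood above every member in all 4 sarcomas, and the low value of each was in ATO 2.

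H2az1 (H2afz), which encodes the variant H2A.Z, was at 89.3 and 42.1 FPKM in the ATO sarcomas and at 242 and 67.9 FPKM in the PBS sarcomas, with a fitted log2 fold change of -1.01 ± 0.76 (SE) with an adjusted p in edgeR of 0.736. PBS 1 stood apart, and the sign turned to 0.19 without it. H2ax (H2afx), the variant that is phosphorylated at DNA breaks, was at 37.3 and 8.29 against 35 and 20.5 FPKM, and ATO 2 was again lowest.

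Of 16 tested genes for the transcription and 3′ processing of histone pre-mRNA, edgeR and DESeq2 called 0, with 0 at an unadjusted edgeR p under 0.05. Here 2 had a fitted value above 0 and 14 below, with a median log2 fold change of -0.30. Slbp, which binds the stem-loop, was at 10.0 and 4.40 FPKM in the ATO sarcomas and at 11.1 and 7.83 FPKM in the PBS sarcomas, and the groups overlapped. Npat, the activator of histone transcription in S phase, was at 3.60 and 1.89 against 5.69 and 4.89 FPKM (log2 fold change -0.71 ± 0.45, edgeR adjusted p = 0.693). Casp8ap2, a factor of 3′ processing, was at 3.86 and 2.17 against 4.98 and 4.63 FPKM (edgeR adjusted p = 0.802). For Npat and Casp8ap2 both ATO sarcomas lay below both PBS sarcomas.

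The 15 histone chaperones, which escort histones to and from DNA, also had 0 calls by edgeR and DESeq2, with 4 fitted values above 0, 11 below and a median of -0.39 that was -0.85 without ATO 1 and -0.08 without ATO 2. Chaf1a, the large subunit of the chromatin assembly factor CAF-1, was at 2.69 and 0.60 FPKM in the ATO sarcomas and at 6.46 and 2.99 FPKM in the PBS sarcomas (log2 fold change -1.34 ± 0.80, edgeR adjusted p = 0.683, and -2.58 without ATO 1). Asf1b was at 7.90 and 1.93 against 9.58 and 6.24 FPKM. Ssrp1, a subunit of the chaperone FACT, was the gene of this list with an unadjusted p under 0.05 (edgeR's adjusted p = 0.570), at 31.9 and 19.5 against 73.0 and 72.6 FPKM. It was singled out after its values were seen.

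S phase and proliferation genes were set beside the members since replication-dependent histone genes are transcribed in S phase. Of 21 tested, edgeR and DESeq2 called 0, with 1 (Tyms, named after its values were seen) at an unadjusted edgeR p under 0.05. Here 6 had a fitted value above 0 and 15 below, and the median log2 fold change of -0.47 was 0.15 without ATO 2 and 0.09 without PBS 1. The median level was 11.4 and 2.50 FPKM in the ATO sarcomas and 11.1 and 9.19 FPKM in the PBS sarcomas, so the low sarcoma was ATO 2. Mki67, a marker of cycling cells, was at 45.4 and 1.96 FPKM in the ATO sarcomas and at 16.3 and 11.9 FPKM in the PBS sarcomas. Rrm2, a subunit of ribonucleotide reductase, was at 44.6 and 3.19 against 23.5 and 9 FPKM.

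Mki67 and Rrm2 were highest in ATO 1 and lowest in ATO 2, the order in which H4c9 also placed these 2 sarcomas. Pcna, the sliding clamp of DNA replication, was at 46.5 and 22.1 against 44.4 and 37.3 FPKM, and Ccne2, a cyclin of the entry into S phase, at 6.94 and 1.65 against 5.80 and 3.88 FPKM. Of the members, H2bc4, H2bc8 and H4c8 were highest in ATO 2, and H1f2 and H3c15 were not lowest there, while H1f0 and H4c9 were. H1f10 was lowest in ATO 2 in FPKM, but in normalized CPM it was lowest in ATO 1 (2.58, against 2.80 in ATO 2). The 31 members other than H1f0, H1f2, H2bc4 and H2bc21, with H4c9 among them, summed to 56.6 and 27.4 against 36.3 and 33.3 FPKM. The 17 untested members summed to 9.25 and 4.42 against 7.92 and 8.13 FPKM. In FPKM both sums were highest in ATO 1 and lowest in ATO 2. In normalized CPM the 31 members summed to 43.7 and 28.1 against 30.3 and 24.4, so PBS 2 was lowest. The 17 untested members were still lowest in ATO 2, at 5.11 and 3.37 against 4.05 and 3.63 in normalized CPM. The 22 stem-loop members without H1f2 and H4c9, at 20.3 and 18.7 against 10.5 and 13.5 FPKM, were not lowest in ATO 2. All of this was noted after the values were seen.

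**Figure D5:**
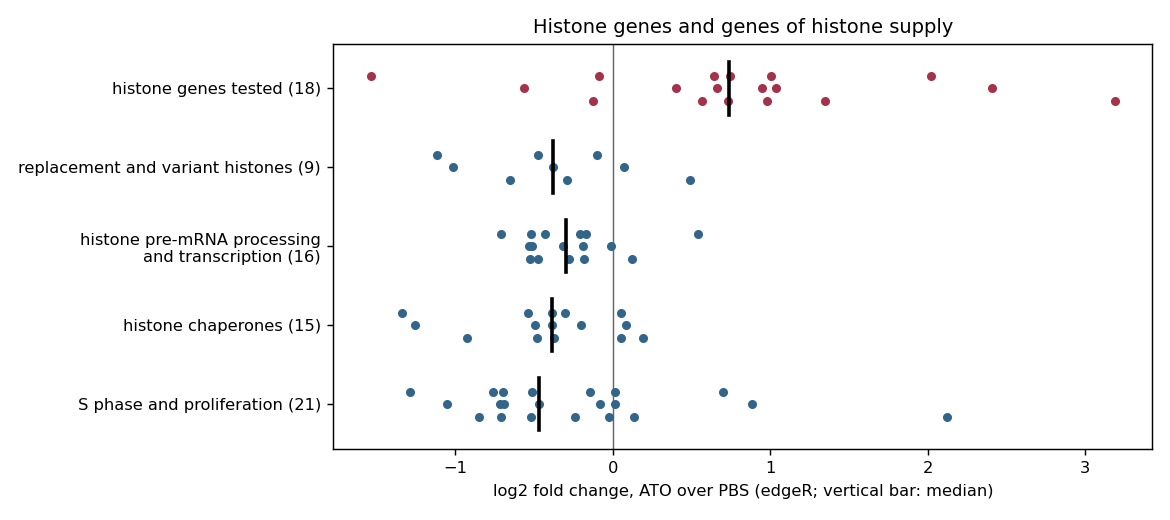
Log2 fold change, ATO over PBS, from edgeR for the 18 histone genes that passed the filter and for the tested genes of the 4 lists, with 1 point per gene, vertical bars at the median, and 0 calls in every row. The medians of the 4 lists lie between -0.47 and -0.30, while that of the histone genes, which passed a filter on counts, is 0.74.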

How the data were processed

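RNA-seq of 4 sarcomas of W/+ mice was analysed, 2 labelled ATO and 2 labelled PBS. The authors aligned reads (HISAT2 2.0.1 per the submitters' processing notes) and deposited raw counts per gene. The paper's methods name HTSeq for the counting. The authors also deposited FPKM, which equals the count divided by gene length and total count, within rounding, in all 226764 values. The labels give an mRNA-Seq kit while the methods describe another mRNA purification. The strand setting and the treatment of reads fitting several places are not given in the sources used here. The growth protocol in the labels describes cultured cells under agents used for adipocyte differentiation, for all samples.

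Members were chosen by symbol and a minimum of 10 summed counts. Members and gene lists were chosen with earlier results of these data known. Counts were tested with edgeR 4.0.16 (filterByExpr, TMM, glmQLFit, glmQLFTest) under R 4.3.3, with Benjamini-Hochberg adjustment over all 17188 genes and a threshold of 0.05. The script was tested on simulated data. Whether replicates were separate mice is not stated, so p-values measure the spread between these samples. A count of 0 allows up to 3 counts, 0.165 to 0.197 CPM of the total counts without TMM scaling. Named were the 4 members of highest mean FPKM in each type, up to 6 with the largest fitted fold in each direction, those known to be polyadenylated, and 13 list genes. Fits were repeated with DESeq2 1.42.0, with total counts or DESeq2 size factors as scaling, without mitochondrial genes, without the filter, with a replicate block and with each sarcoma left out. Positions and UTRs come from the GENCODE M21 annotation of GRCm38, matched by gene identifier, since the table's own positions differ from that build. Shared windows are 100-base stretches of a transcript found in another gene.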

Additional observations from a re-analysis of the deposited data

How the results depend on the processing

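Counts over the 4 libraries were 10 to 28 for 17 of the members, so depth limits what these can show, and with a minimum of 50 counts 12 members would remain in place of 35. The count of members past the threshold was 0 in every alternative, while over all genes it was 716 in DESeq2 and 541 without a filter, against 0. The cause of these differences was not tested. Of 28 named genes with a fitted value, 15 kept their direction in every alternative and 13 changed it in at least 1.

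With total counts in place of TMM, the median log2 fold change of the tested members was 0.48 against 0.74, and by type it was 0.35 against 0.57 for H1, 0.72 against 1.00 for H2B and 1.07 against 1.34 for H3. The median of the processing genes was then -0.57 against -0.30, H3f3a was at -0.19 against 0.07 and Ccne2 at -0.17 against 0.02. Without a filter, which brings in the untested members, the median was 0.64 for H3 and 0.62 against 1.53 for H4, and Ccne2 was at -0.0059.

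The replicate numbers name no pairing in the labels, and the deviations of ATO 1 and PBS 1 from their group means correlated at -0.02 across genes. This is a single value, so it cannot show whether same-numbered sarcomas share anything beyond the number. With the replicate number as a block, edgeR called 0 genes, the median of the tested members was 0.86 and that of H1 0.75, and H2ac6 was at 0.33, H4c18 at 0.71, Rrm2 at -0.00079, Ccne2 at -0.21 and Mki67 at -0.28.

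For the summed levels, normalized CPM gave log2 ratios of -0.079 for H2A, 1.04 for H2B and 0.97 for H3, against -0.48, 0.71 and 0.45 in FPKM. Without the highest member of the type the log2 ratio was 0.33 for H1, -1.07 for H2A and -0.22 for H3.

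With each sarcoma left out, the median of the tested members ranged from 0.75 to 0.95, and by type from 0.12 to 0.61 for H1, -0.86 to 0.47 for H2A, 0.76 to 1.58 for H2B, 0.13 to 1.81 for H3 and -0.45 to 3.13 for H4. The medians of the lists ranged from -0.53 to 0.11 for the variants, -0.41 to -0.29 for the processing genes, -0.85 to -0.084 for the chaperones and -1.44 to 0.15 for S phase genes. The log2 ratio of the summed level of H4 ranged from -0.30 to 1.15 and that of H1 from -0.57 to 0.10. Single genes whose sign turned ranged from -0.60 to 1.17 for H1f9, -0.86 to 1.67 for H2ac6, -1.11 to 1.41 for H4c9, -1.06 to 3.33 for H4c18, -1.67 to 0.19 for H2az1, -1.34 to 0.55 for H2ax, -0.70 to 0.21 for Slbp, -1.63 to 0.13 for Asf1b, -1.95 to 1.58 for Rrm2, -0.48 to 0.32 for Pcna, -1.15 to 0.65 for Ccne2 and -2.44 to 1.82 for Mki67. Among the genes that kept their sign, the range was 0.12 to 1.84 for H1f2, -2.15 to -0.49 for H1f10, 0.54 to 1.30 for H2bc4, 0.69 to 2.56 for H2bc21, 0.47 to 1.96 for H2bc9, 1.93 to 3.13 for H4c14, -1.08 to -0.42 for Npat, -0.74 to -0.18 for Casp8ap2, -2.58 to -0.67 for Chaf1a and -0.78 to -0.073 for H3f3b, and H3c4 was at 0.13 without PBS 2. The sarcoma of a group left alone is assumed to vary like the others.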
